A study of Homo sapiens with 3 samples.

Results

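Solute carriers are membrane proteins that move amino acids, sugars, ions, metals, vitamins and other small molecules across the plasma membrane and the membranes of organelles. The genes described here are those with a symbol of the form SLC, a family number, A and a member number, represented by their brightest probe set and kept when the mean of its RMA level over the 3 arrays was at least 5 on the log2 scale. The rule gave 16 genes of the 17 that had a named probe set, out of 14884 named genes in the series. RefSeq lists 347 protein-coding symbols of this form, so the 16 are a small part of the superfamily. They are no even sample of it, since most were numbered only recently. A probe set counted as named when the annotation gave it exactly 1 gene. Carriers with no named probe set were not analysed here. Only SLC25A2, an ornithine carrier of mitochondria, fell below the level, with a mean of 4.83, and SLC60A1 lay just inside it at 5.21. The genes were selected on their mean level over all 3 arrays, so the levels are given as a description and support nothing.

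The arrays measured total RNA from A549, an established human lung cancer line, 48 h after lipid transfection with siNC, the control siRNA, or with siTAZ or siYAP, which target TAZ and YAP. Each group had 1 array, so the differences carry no replicate error, no p-value can be given, and a single culture stands for each condition. The siNC array serves both knockdown comparisons. YAP and TAZ are transcriptional co-activators held back by the Hippo kinases, and they reach DNA mainly through TEAD factors. In other work, amino acid and glucose carriers of the plasma membrane have been tied to both proteins.

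WWTR1, which encodes TAZ, was at 6.50 in siNC, 5.81 in siTAZ and 6.50 in siYAP, and YAP1 was at 8.45, 8.24 and 6.87. Each target was thus lowest in its own array. The 5 measured epithelial and A549 markers were between 6.44 and 11.56 in the siNC array, with KRT18 the highest of them. The 1 leukocyte and 2 endothelial markers with a probe set lay below 5, between 3.60 and 4.49. The fibroblast gene LUM was at 7.45, 8.14 and 8.10 on the 3 arrays (siNC, siTAZ, siYAP), whereas DCN, another fibroblast gene, was at 2.38 on each and THY1, the third measured, at 5.22, 5.06 and 5.06. The part of these genes' cell type in the differences below was not tested. Of the measured alveolar type 2 genes, SFTPC and SFTPD were at 5.04 and 5.02 in siNC, and SFTPB and NAPSA at 4.88 and 4.09. Whether A549 expresses these genes was not tested. A level of 5 on its own was therefore not taken to show that a gene is expressed. In all, 8674 named genes, 58.3% of them, passed the same level.

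Most of the 16 have only recently received an SLC number. RefSeq gives MFSD synonyms, names of the major facilitator superfamily, for 10 of them. SLC71A1 and SLC71A2 were MFSD14A and MFSD14B, SLC60A1 and SLC60A2 were MFSD4A and MFSD4B, SLC49A3 was MFSD7, SLC61A1 was MFSD5, SLC67A2 was MFSD9, SLC68A1 was MFSD13A, SLC75A1 was MFSD10 and SLC33A2 was MFSD3. SLC66A1, SLC66A2 and SLC66A3 were PQLC2, PQLC1 and PQLC3, proteins with PQ loops. SLC38A12 was TMEM104, SLC49A4 was DIRC2, and SLC25A15 is the ornithine carrier ORNT1. Several of these proteins have no settled substrate.

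The 3 genes with the largest differences between arrays were SLC38A12, SLC66A3 and SLC71A2, and the 250 bases before their RefSeq start sites (GRCh38.p14) are shown so that the same stretch of each can be compared. The windows are chr17:74776249-74776498 on the plus strand for SLC38A12, chr2:11155217-11155466 on the plus strand for SLC66A3 and chr9:94374319-94374568 on the plus strand for SLC71A2. Capitals mark the GC box letters GGGCGG and the letters GCATGCGC, part of the motif of the factor NRF1, on either strand.
SLC38A12: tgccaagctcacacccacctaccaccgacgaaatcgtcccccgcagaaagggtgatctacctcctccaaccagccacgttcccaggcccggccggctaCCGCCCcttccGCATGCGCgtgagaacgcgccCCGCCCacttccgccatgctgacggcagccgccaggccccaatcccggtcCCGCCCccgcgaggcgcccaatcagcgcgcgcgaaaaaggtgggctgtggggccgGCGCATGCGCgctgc
SLC66A3: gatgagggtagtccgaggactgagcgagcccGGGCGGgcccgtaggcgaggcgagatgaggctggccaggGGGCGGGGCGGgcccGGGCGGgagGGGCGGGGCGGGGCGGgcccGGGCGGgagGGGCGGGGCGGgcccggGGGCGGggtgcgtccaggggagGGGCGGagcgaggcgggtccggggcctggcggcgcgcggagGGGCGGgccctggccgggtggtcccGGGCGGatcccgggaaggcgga
SLC71A2: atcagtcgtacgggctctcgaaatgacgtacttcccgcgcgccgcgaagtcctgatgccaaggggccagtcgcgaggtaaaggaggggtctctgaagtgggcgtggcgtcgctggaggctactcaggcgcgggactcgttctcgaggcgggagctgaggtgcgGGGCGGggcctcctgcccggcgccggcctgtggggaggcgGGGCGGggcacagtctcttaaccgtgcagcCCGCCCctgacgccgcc

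These windows were 70.8%, 84.4% and 70.4% G and C. SLC66A3 held 14 matches to GGGCGG, several of them overlapping, and SLC38A12 and SLC71A2 held 3 each. SLC38A12 also held 3 matches to GCATGCGC, the last 2 of which overlap because they lie on opposite strands of 1 run, and the other windows shown held 0. Promoter windows were found for 14 of the 16 genes, with 2 windows for SLC75A1. GGGCGG occurred in 13 of the 14, against 42.6% of 35116 RefSeq windows of the same length, and GCATGCGC in 2 of the 14 (SLC38A12 and SLC60A2), against 2.63%. The letters GGAATG, the core of the TEAD motif, were searched on both strands and occurred in 0 of the 14, against 11.9% of all windows. The E-box CACGTG occurred in 1, SLC60A2, against 6.34%. These are matches of letters in a short window and say nothing of whether a factor binds there or elsewhere. The 14 were counted by gene, with SLC75A1 matching GGGCGG in 1 of its 2 windows, whereas the 35116 were counted by window. Those windows were not selected by gene type, level or G and C content, so the shares are not like for like.

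**Figure D1:**
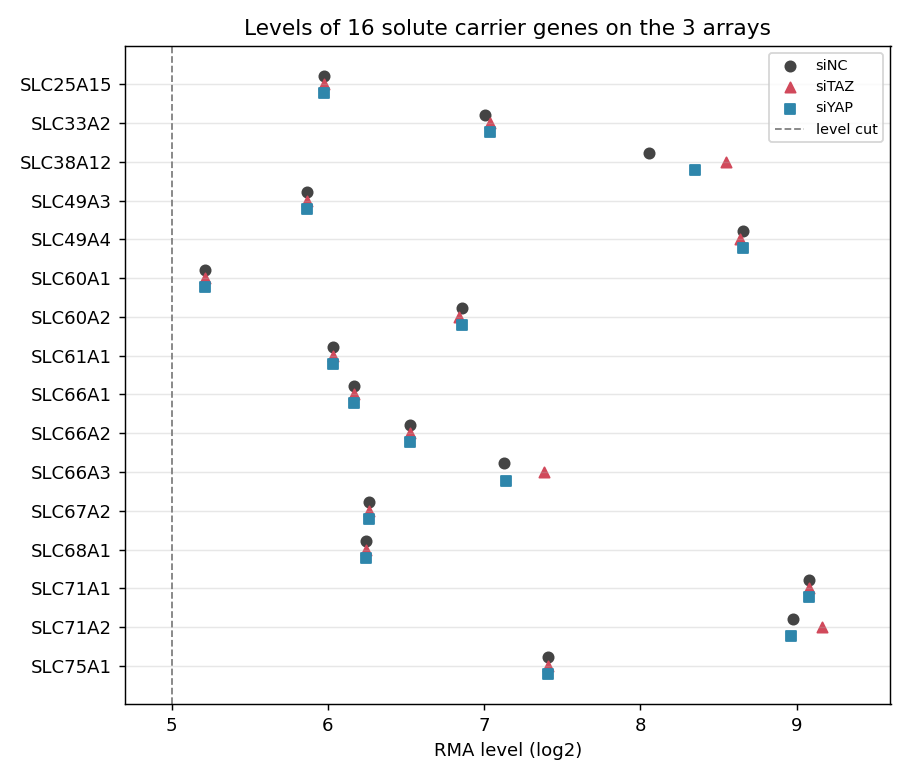
RMA level (log2, horizontal axis) of each of the 16 genes on the siNC (circles), siTAZ (triangles) and siYAP (squares) arrays, 1 array per group, with the level of 5 as a dashed line. The symbols of a gene lie almost on top of each other except for SLC38A12, SLC66A3 and SLC71A2, whose siTAZ values are the highest of their 3.

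None of the 16 genes differed by 1.5-fold or more in any comparison, and the largest fold, for SLC38A12, was 1.41. Few genes of any kind did so. Among the 8674 genes, siTAZ against siNC had 1.22% lower and 0.853% higher by 1.5-fold, siYAP against siNC had 0.45% lower and 0.565% higher, and siYAP against siTAZ had 0.196% lower and 0.68% higher. A count of 0 among 16 genes is near this background and is no result about carriers. Of the 16, 4 were higher, 2 lower and 10 identical in siTAZ against siNC, and 3 were higher, 2 lower and 11 identical in siYAP against siNC. Over all 8674 genes, siTAZ against siNC had 33.5% higher, 22.7% lower and 43.8% identical, and siYAP against siNC had 30.3% higher, 23.0% lower and 46.7% identical. In siYAP against siTAZ, 2 carriers were higher, 4 lower and 10 identical, beside 21.3%, 29.1% and 49.5% of all genes. The median difference was 0 in the 3 comparisons, for the 16 genes and for all genes.

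Of the amino acid carriers, the list fixed by family held 1 gene here, SLC38A12, whose number places it with the sodium-coupled neutral amino acid transporters. It was at 8.06 in siNC, 8.55 in siTAZ and 8.35 in siYAP. Both knockdown arrays were thus above the control, with siTAZ the higher. Against siNC the difference was 0.49 on the log2 scale for siTAZ (1.41-fold) and 0.29 for siYAP (1.22-fold). A positive difference at least as large was found for 128 of the 8674 genes (1.48%) in the siTAZ comparison and for 313 (3.61%) in the siYAP comparison. Counted in either direction, these shares were 3.32% and 6.54%. The 8674 genes were not matched by level, and SLC38A12 was the farthest from 0 of the 16 in both comparisons. Both differences subtract the same control value, so they are not independent of each other. In the direct comparison siYAP was 0.20 lower than siTAZ, and 9.49% of genes differed at least that much in either direction.

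The PQ-loop family SLC66 had 3 members, and they did not move as a group. SLC66A1 exports cationic amino acids such as lysine and arginine from lysosomes, and its level was 6.17 on all 3 arrays. SLC66A2 was at 6.53 on all 3. SLC66A3 was at 7.13 in siNC, 7.38 in siTAZ and 7.14 in siYAP, so that siTAZ alone stood off. Its difference was 0.26 in siTAZ (1.19-fold) and 0.010 in siYAP, and siYAP was 0.25 below siTAZ. In the siTAZ comparison 6.74% of genes had a difference at least as high, and 12.4% differed at least as far in either direction. In the direct comparison 6.76% differed at least as far.

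SLC71A1 and SLC71A2 are paralogues named after a transcript abundant in the hippocampus. SLC71A1 was at 9.08 on each array, with identical siNC and siTAZ values and a siYAP value 0.0023 lower. SLC71A2 was at 8.98 in siNC, 9.16 in siTAZ and 8.96 in siYAP. As with SLC66A3, the siTAZ value was the highest and the other arrays lay close together. The SLC71A2 difference was 0.18 in siTAZ (1.14-fold) and -0.014 in siYAP, and siYAP was 0.20 below siTAZ. In the siTAZ comparison 10.9% of genes had a difference at least as high, and 19.2% differed at least as far in either direction. RefSeq also lists a transcribed pseudogene of this family, SLC71A3P, and whether its transcripts add to either probe set was not tested.

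**Figure D2:**
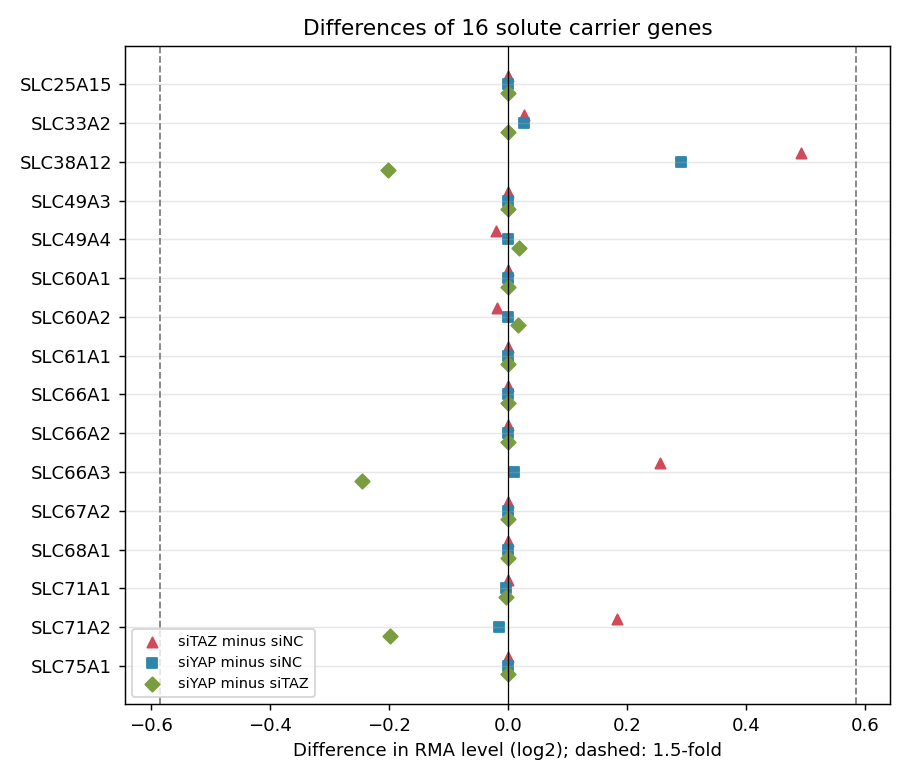
Difference in RMA level (log2, horizontal axis) for each of the 16 genes in siTAZ minus siNC (triangles), siYAP minus siNC (squares) and siYAP minus siTAZ (diamonds), 1 array per group. No symbol reaches the dashed lines at 1.5-fold, and SLC38A12, at 0.49 and 0.29, is the farthest from 0 in both comparisons with siNC.

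The other carriers had differences of under 0.03 in size or none. In the sugar list, SLC60A2, which RefSeq also calls NaGLT1 for sodium-dependent glucose transport, was at 6.86 in siNC, 6.84 in siTAZ and 6.86 in siYAP, a siTAZ difference of -0.018. Its paralogue SLC60A1 was at 5.21 on all 3 arrays. SLC33A2, numbered in the family of the acetyl-CoA transporter of the endoplasmic reticulum, was at 7.01 in siNC and at an identical 7.03 in both knockdown arrays. SLC49A4, a protein of the lysosomal membrane, was at 8.65 in siNC, 8.63 in siTAZ and 8.65 in siYAP, a siTAZ difference of -0.019. For these genes no array stood apart by 0.03 or more.

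The single mitochondrial carrier of the set, SLC25A15, exchanges ornithine across the inner membrane for the urea cycle. It was at 5.97 on all 3 arrays. RefSeq lists several SLC25A15 pseudogenes, and whether they share signal with this probe set was not tested. SLC49A3 was at 5.87, SLC61A1, described as a molybdate transporter, at 6.03, SLC68A1 at 6.24, SLC67A2 at 6.26 and SLC75A1, also known as TETRAN, at 7.41, each on all 3 arrays. Of the 12 lists made by family, 7 held none of the 16 genes, among them those for monocarboxylates, ion and pH regulation, metals, vitamins and lipids. The leftover list of other families held 11 of the 16. Lists followed family numbers, so the amino acid exporter SLC66A1 was in the leftover list. An empty list is thus no sign that a function is missing.

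For 9 of the 16 genes the 3 deposited values were identical to the last digit. Over all 8674 genes this share was 36.4%. It depended on the level: 56.8% of genes with a mean from 5 to 6 had identical values, 38.0% from 6 to 7, 24.0% from 7 to 8 and 15.6% at 8 or above. Of the carriers, 3 of 3, 5 of 6, 1 of 3 and 0 of 4 were identical in these ranges. The SD of the siTAZ minus siNC difference across genes was 0.14, 0.18, 0.23 and 0.23 in the same ranges. An exact 0 in a summarised value is no measurement of how stable a transcript is, and the cause of these ties was not tested. Levels were also shared between probe sets: 7 of the 16 siNC values occurred on another probe set of that array, and the 53617 probe sets held 23108 distinct siNC values.

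**Figure D3:**
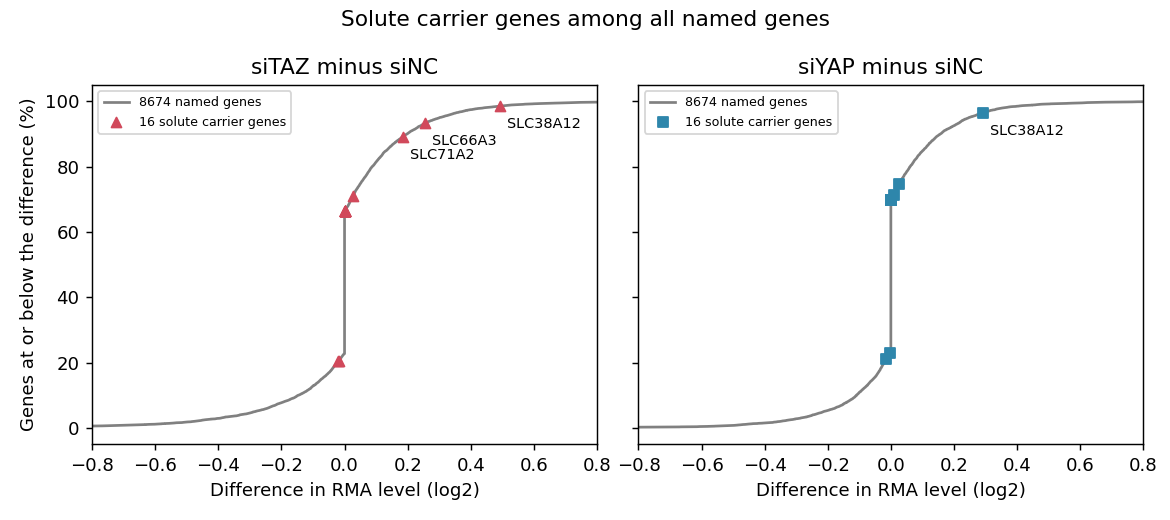
Share of 8674 named genes (percent, vertical axis) at or below a given difference in RMA level (log2, horizontal axis) as a grey line, for siTAZ minus siNC (left) and siYAP minus siNC (right), with the 16 carriers as symbols, labelled where they exceed 0.1 in size. The vertical step at 0 is the 43.8% (siTAZ) and 46.7% (siYAP) of genes with identical values, where most carriers lie.

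Proteins that work with solute carriers or transport solutes under other names formed a list of 41 genes. Of these, 26 had a named probe set, 4 more were older names of genes already described, and 24 passed the level. In siTAZ against siNC 16 of the 24 were higher, 2 lower and 6 identical, with a median difference of 0.040, and 0 reached 1.5-fold. Over all 8674 genes 33.5% were higher, 22.7% lower and 43.8% identical, with a median of 0. The 24 were not matched to these genes by level. Values identical on the 3 arrays fell from 56.8% of genes at a mean of 5 to 6 to 15.6% at 8 or above. The part of level in the partners' counts was not tested. In siYAP against siNC 11 were higher, 5 lower and 8 identical, with a median of 0, and 1 was at least 1.5-fold lower, beside 30.3%, 23.0%, 46.7% and 0.45% of all genes. That gene was XPR1, the phosphate exporter, at 9.92 in siNC, 10.03 in siTAZ and 9.28 in siYAP. It was 1.56-fold lower in siYAP than in siNC and 1.68-fold lower than in siTAZ, with the siYAP array alone standing off.

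BSG encodes basigin, the chaperone that brings monocarboxylate transporters to the cell surface. It was at 10.33 in siNC and at an identical 10.77 in both knockdown arrays, a difference of 0.44 (1.36-fold). MPC1, a subunit of the mitochondrial pyruvate carrier, was at 7.93 in siNC and at an identical 8.42 in both knockdown arrays, a difference of 0.49 (1.41-fold), while its partner subunit MPC2 was at 8.85 in siNC and 8.89 in both knockdown arrays. MTCH2, an outer mitochondrial membrane protein, was at 10.20, 10.58 and 10.44. Both knockdown arrays were above the control for each of these genes.

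LETM1, an inner mitochondrial membrane protein of cation exchange, was at 7.26, 7.62 and 7.21 on the siNC, siTAZ and siYAP arrays. SFXN3, a sideroflexin, was at 7.24, 7.58 and 7.23. In both, as in SLC66A3 and SLC71A2, the siTAZ value was the highest and the siNC and siYAP values lay closer to each other. CNNM4, a magnesium transport protein, was at 6.61, 6.23 and 6.61, with the siTAZ value alone lower, while its relative CNNM2 was at 7.45, 7.45 and 7.82, with the siYAP value alone higher. Identical siTAZ and siYAP values off the control were found in 6 of the 24 genes, in 1 of the 16 carriers (SLC33A2) and in 13.1% of all 8674 genes.

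**Figure D4:**
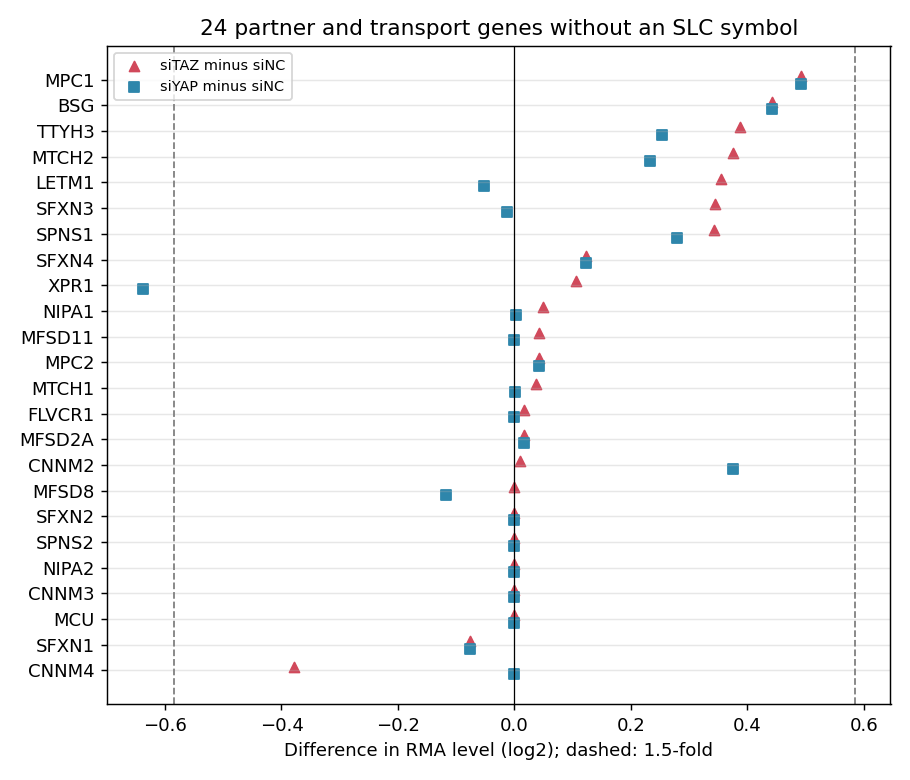
Difference in RMA level (log2, horizontal axis) of the 24 partner and transport genes without an SLC symbol in siTAZ minus siNC (triangles) and siYAP minus siNC (squares), 1 array per group, with dashed lines at 1.5-fold. XPR1 in siYAP, at -0.64, is the single value past a dashed line.

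The plasma membrane carriers most often tied to YAP and TAZ could not be described. Whether A549 expresses them was not tested. A list of 8 amino acid carriers (among them SLC7A5 and SLC3A2), a list of 9 glucose and lactate carriers (among them SLC2A1) and a list of 12 carriers responsive to the stress factor ATF4 each had 0 genes with a named probe set, and they were not analysed here.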

How the data were processed

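Total RNA (500 ng) from 3 A549 cultures was labelled for 1-colour whole-transcript arrays, 1 array each for siNC, siTAZ and siYAP, per the labels' protocols. The authors summarised the arrays with RMA, per the submitters' processing notes; its version is not given in the sources used here, nor is the build behind the array annotation. The deposited values were taken to be log2, since they lay between 0.96 and 13.54 and the array medians were 4.28, 4.26 and 4.27. RMA's quantile normalization removes differences in total RNA, so each value is relative to its array. With 1 array per group, their number limits the precision, and fewer transcripts per cell cannot be told apart from fewer such cells.

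Symbols came from the platform's annotation, which named 16098 probe sets with 1 gene each. The other 37519 carried no symbol or more than 1 and were left out. How many of them carried more than 1 was not counted. All members matched RefSeq (GRCh38.p14), and each had 1 probe set. Differences of log2 values were counted at 1.5-fold, beside all named genes at a mean of at least 5. Python 3.11.15 with pandas 2.3.3 and statsmodels 0.14.6 was used, and the counting was tested on simulated data. Those data had 1 noise level for all genes and no tied values, so they check the code and not its suitability for these arrays. Genes, lists and thresholds were chosen with earlier results of these data known. The rule for named genes took members at 1.5-fold, the most positive and negative of each comparison, the brightest, the 2 farthest in each family list and a fixed set; here every member is named. The partner genes with values were picked for naming once those values were known.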

Additional observations from a re-analysis of the deposited data

How the results depend on the processing

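The counts of carriers at 1.5-fold stayed at 0 in both directions under each of 7 other ways of processing. They included the mean of all probe sets, a level of 6, no level and a shift to a median of 0. These could not move a carrier's difference, since each carrier had 1 probe set and the median was already 0. A changed level only alters which genes are counted, so a count of 0 under these settings is no sign of stability. The others were a new quantile normalization, a loess trend (span 0.4) and a changed reference. For both comparisons with siNC, that reference was averaged from siNC and the other knockdown. Counting as carriers also genes with an SLC number among their RefSeq synonyms, an alternative chosen after seeing the data, gave 50 genes and a count of 1 lower in siYAP against siNC and 1 lower in siYAP against siTAZ (XPR1 in both), beside 0.45% and 0.196% of all named genes. Differences of single genes moved by at most 0.025 on the log2 scale, except with the changed reference, where SLC38A12 was at 0.35 in siTAZ and 0.044 in siYAP, SLC66A3 at -0.12 in siYAP and SLC71A2 at -0.11 in siYAP. The changed reference is built from the other knockdown, so a difference shared by both arrays shrinks by construction. For SLC66A3 and SLC71A2, the negative siYAP values come mainly from the high siTAZ value within that reference. Against siNC alone their siYAP differences were 0.010 and -0.014. No paired analysis was possible because each group had 1 array. Dim probe sets limit what can be seen, since identical values were most frequent at low levels.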

Other observations

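Further genes with an SLC symbol of another form were outside the rule. The bile acid and steroid exporter subunit SLC51B was at 8.22 in siNC, 8.33 in siTAZ and 8.77 in siYAP, 1.47-fold higher in siYAP, while its partner SLC51A was at 4.15 on all 3 arrays. SLC9D1, also called TMCO3, was at 7.66, 7.59 and 7.31, a siYAP difference of -0.35. SLC35D4 was at 5.75, 5.91 and 5.75, and SLC35F6 at 10.34, 10.36 and 10.26. These genes were named after their values were seen.

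RefSeq synonyms with an SLC number were held by 41 further named genes, of which 34 passed the level of 5, and 20 of those were on the list of partner genes. The other 14 lay between -0.34 and 0.11 in siTAZ against siNC and between -0.088 and 0.11 in siYAP against siNC. The lowest was CNNM1, a relative of CNNM4, at 7.04 in siNC, 6.70 in siTAZ and 6.96 in siYAP. STRA6, the receptor for retinol-binding protein, was at 6.95 in siNC and at an identical 7.02 in both knockdown arrays.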
